A study of Mus musculus with 12 samples.

Results

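Expression of 9 genes of mitochondrial fusion, fission and mitophagy was followed in inguinal white adipose tissue, a fat depot that lies under the skin of the groin. They were the fusion genes Mfn1, Mfn2 and Opa1, the protease gene Oma1, the fission genes Dnm1l, Fis1 and Mff, and the mitophagy genes Pink1 and Bnip3. The members were picked by name, with earlier results of these data known. All 9 were found among the 24344 rows of the gene table. They passed the filter that kept 13215 genes for testing (at least 1 FPKM in at least 3 libraries). RNA was sequenced from 12 C57BL/6J mice aged 10 weeks, 1 library per mouse. All 12 mice had been kept for 4 weeks at room temperature, then for 6 weeks at 30 °C, close to the temperature at which a mouse needs no extra heat, and then 3 days at either 8 °C or 30 °C. The 4 groups of 3 mice were WT_30C (genotype WT, kept at 30 °C), WT_8C (WT, moved to 8 °C), AKO_30C (genotype IRE1α-/-, kept at 30 °C) and AKO_8C (IRE1α-/-, moved to 8 °C).

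The series title calls the WT mice Ern1f/f and the others Ern1f/f AKO, so the floxed Ern1 allele is shared by all groups. Ern1 encodes IRE1α, a kinase and ribonuclease that senses unfolded protein in the endoplasmic reticulum. The Cre driver and the cells it acts in are not given in the sources used here. Ern1 itself stood at 2.94 ± 0.395 FPKM (SD, n = 3) in WT_30C, 4.06 ± 0.544 in AKO_30C, 4.96 ± 0.375 in WT_8C and 7.04 ± 0.288 in AKO_8C. Its level was not lower in the libraries labelled AKO, and the log2 difference of AKO over WT was 0.36 at 30 °C (limma, adjusted p = 0.193) and 0.43 at 8 °C (adjusted p = 0.0756). A gene-level FPKM does not show whether an exon was removed, so AKO below means the libraries labelled AKO.

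Mitochondria are remodelled by joining and dividing. The mitofusins MFN1 and MFN2 join outer membranes, OPA1 joins inner membranes and shapes cristae, and the stress-activated protease OMA1 cuts OPA1. The dynamin DRP1, encoded by Dnm1l, is recruited to the outer membrane by adaptors such as MFF and FIS1 and divides the organelle. Damaged mitochondria are removed by mitophagy, in which the kinase PINK1 marks them through ubiquitin, or through membrane receptors such as BNIP3. In brown and beige fat, cells packed with mitochondria burn fuel for heat in the cold, and the shape, number and turnover of mitochondria change with that activity.

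The proximal promoters of the 5 members whose expression rose in the cold in either genotype are shown so that the sequences upstream of these genes can be compared. Each line gives the 150 bases before the most upstream annotated start, 5′ to 3′ on the gene's own strand. Starts are from RefSeq on build GRCm38.p6, and matches to a searched motif are in capitals.
Mfn1 (chr3:32529332-32529481, plus strand): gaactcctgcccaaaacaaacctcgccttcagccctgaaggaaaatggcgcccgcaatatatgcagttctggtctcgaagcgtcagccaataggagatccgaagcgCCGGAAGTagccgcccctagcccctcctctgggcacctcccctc
Mfn2 (chr4:147904910-147905059, minus strand): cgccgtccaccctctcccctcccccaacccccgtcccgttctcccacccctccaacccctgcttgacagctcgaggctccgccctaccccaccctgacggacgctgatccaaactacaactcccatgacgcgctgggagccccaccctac
Opa1 (chr16:29579184-29579333, plus strand): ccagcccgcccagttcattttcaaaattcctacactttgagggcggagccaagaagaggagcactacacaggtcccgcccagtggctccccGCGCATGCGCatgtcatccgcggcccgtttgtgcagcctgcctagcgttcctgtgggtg
Mff (chr1:82724740-82724889, plus strand): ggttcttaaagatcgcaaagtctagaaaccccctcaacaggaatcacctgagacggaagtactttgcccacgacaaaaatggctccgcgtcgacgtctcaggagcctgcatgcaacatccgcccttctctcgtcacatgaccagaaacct
Dnm1l (chr16:16359032-16359181, minus strand): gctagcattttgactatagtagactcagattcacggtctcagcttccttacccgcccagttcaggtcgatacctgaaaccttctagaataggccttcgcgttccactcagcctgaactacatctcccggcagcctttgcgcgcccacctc

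Motifs were looked for on both strands of windows from 250 bases before to 50 bases after the start, which were found for all 9 members. Mfn2 had 3 windows, and Mff and Dnm1l had 2 each. Only the most upstream window of a gene was used, so other annotated starts were not searched. The capitals in Mfn1 mark CCGGAAGT, the core bound by ETS factors including GABP, which began 44 bases before the start. It was also found in Fis1, 18 bases before the start, and in 3.89% of all 32851 windows. The capitals in Opa1 mark GCGCATGCGC, in which the NRF1 motif GCGCATGCG matched on both strands. The matches, on one strand 59 bases and on the other 58 bases before the start, overlapped. The NRF1 motif was found in no other member and in 1.75% of all windows. No member window held TNAAGGTCA, the motif of oestrogen-related receptors (1.28% of all windows), the cAMP response motif TGACGTCA (1.79%), the XBP1 motif TGACGTGG (0.676%), the ATF4/CHOP motif TTGCATCA (0.895%) or the FOXO motif GTAAACA (3.65%). The short hypoxia response cores ACGTG and GCGTG were present in 5 of the 9 member windows and in 43.8% of all windows. In Bnip3 they matched at 5 places, with first bases 117, 108, 107, 99 and 35 bases before the start, the matches at 108 and 107 lying within 1 E-box CACGTG (7.15% of all windows). Among the 5 members that rose, the windows of Mfn2 and Dnm1l held a hypoxia response core, and no searched motif was found in all 5.

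On build GRCm38 (GENCODE M21), Mfn1 lies at chr3:32529465-32579239 on the plus strand, Mfn2 at chr4:147873599-147904704 on the minus strand and Opa1 at chr16:29579334-29654884 on the plus strand. Dnm1l lies at chr16:16312230-16358959 (minus), Mff at chr1:82724890-82752394 (plus), Fis1 at chr5:136953275-136966234 (plus) and Oma1 at chr4:103313812-103371868 (plus). Pink1 lies at chr4:138313409-138326307 (minus) and Bnip3 at chr7:138890836-138909519 (minus). Exons of Dnm1l, Mff and Bnip3 overlap an annotated RNA on the opposite strand (Gm49521, C430014B12Rik and Gm45507). The sources used here do not say whether strand was recorded, so reads of each pair cannot be told apart.

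Expression is given as FPKM (fragments per kilobase of transcript, scaled to the mapped fragments of a library), which the authors made and which allows levels of different genes to be set side by side. Read counts and depth are unknown. The FPKM of a library summed to 594202 to 643401 at 30 °C and to 675321 to 743185 at 8 °C, so the sums did not overlap between temperatures, and 12433 to 12818 genes reached 1 FPKM. All 8 adipocyte markers were above 1 FPKM. One WT_8C library (replicate 1) stood apart in 7 mammary epithelial markers, which summed to 97.4 FPKM there and to at most 5.91 FPKM in the other 11, and 1 AKO_30C library (replicate 1) had Ucp1 at 38.1 FPKM against 6.40 and 4.20 in its group. Markers of several cell types moved with temperature. The 10 skeletal muscle markers summed to 2507 to 6404 FPKM in WT_30C and 2682 to 5262 in AKO_30C, against 600.2 to 1385 in WT_8C and 284 to 817 in AKO_8C, with 8 of 10 lower in the cold in WT and 10 of 10 in AKO. The 7 markers of thermogenic adipocytes rose in both genotypes, from 678 to 966 FPKM in WT_30C and 671 to 1492 in AKO_30C to 7363 to 8981 in WT_8C and 10250 to 12580 in AKO_8C. The 8 lymphocyte markers summed to 985 to 1395 FPKM in WT_30C and 832 to 998 in AKO_30C, against 438.5 to 618 in WT_8C and 307 to 484 in AKO_8C, with 7 of 8 lower in the cold in WT and 8 of 8 in AKO. Of 8 adipocyte markers 6 rose in WT and 3 in AKO, and of 6 endothelial markers 5 and 3. Of 8 fibroblast markers 3 rose in WT and 3 fell in AKO, and of 8 macrophage markers 2 rose in WT and 2 fell in AKO. Limma called 24.3% of all genes higher and 24.7% lower in WT (adjusted p under 0.05). In AKO the shares were 26.5% and 23.1%. The macrophage counts lay near these shares. In pieces of whole tissue, fewer cells of a type and less RNA per cell cannot be told apart.

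At 30 °C the members spanned a wide range of levels in WT, from Bnip3 at 163 ± 18.6 FPKM (SD, n = 3) and Fis1 at 160.3 ± 4.22 down to Oma1 at 8.22 ± 2.28. Between them, in falling order, stood Pink1 (102 ± 9.54), Mfn2 (53.2 ± 5.58), Mff (29.7 ± 1.53), Dnm1l (18.1 ± 1.55), Opa1 (11.9 ± 0.663) and Mfn1 (9.45 ± 0.519). Neighbours in this order did not overlap between libraries, except Bnip3 with Fis1 and Mfn1 with Oma1. In AKO_30C the order was the same, and there Opa1 overlapped Mfn1 and Mfn1 overlapped Oma1, while Bnip3 and Fis1 did not overlap. At 8 °C Opa1 stood above Dnm1l in both genotypes, with no overlap. In AKO_8C Mfn2 also stood above Pink1, and Fis1, Mfn2 and Pink1 overlapped one another in turn.

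**Figure D1:**
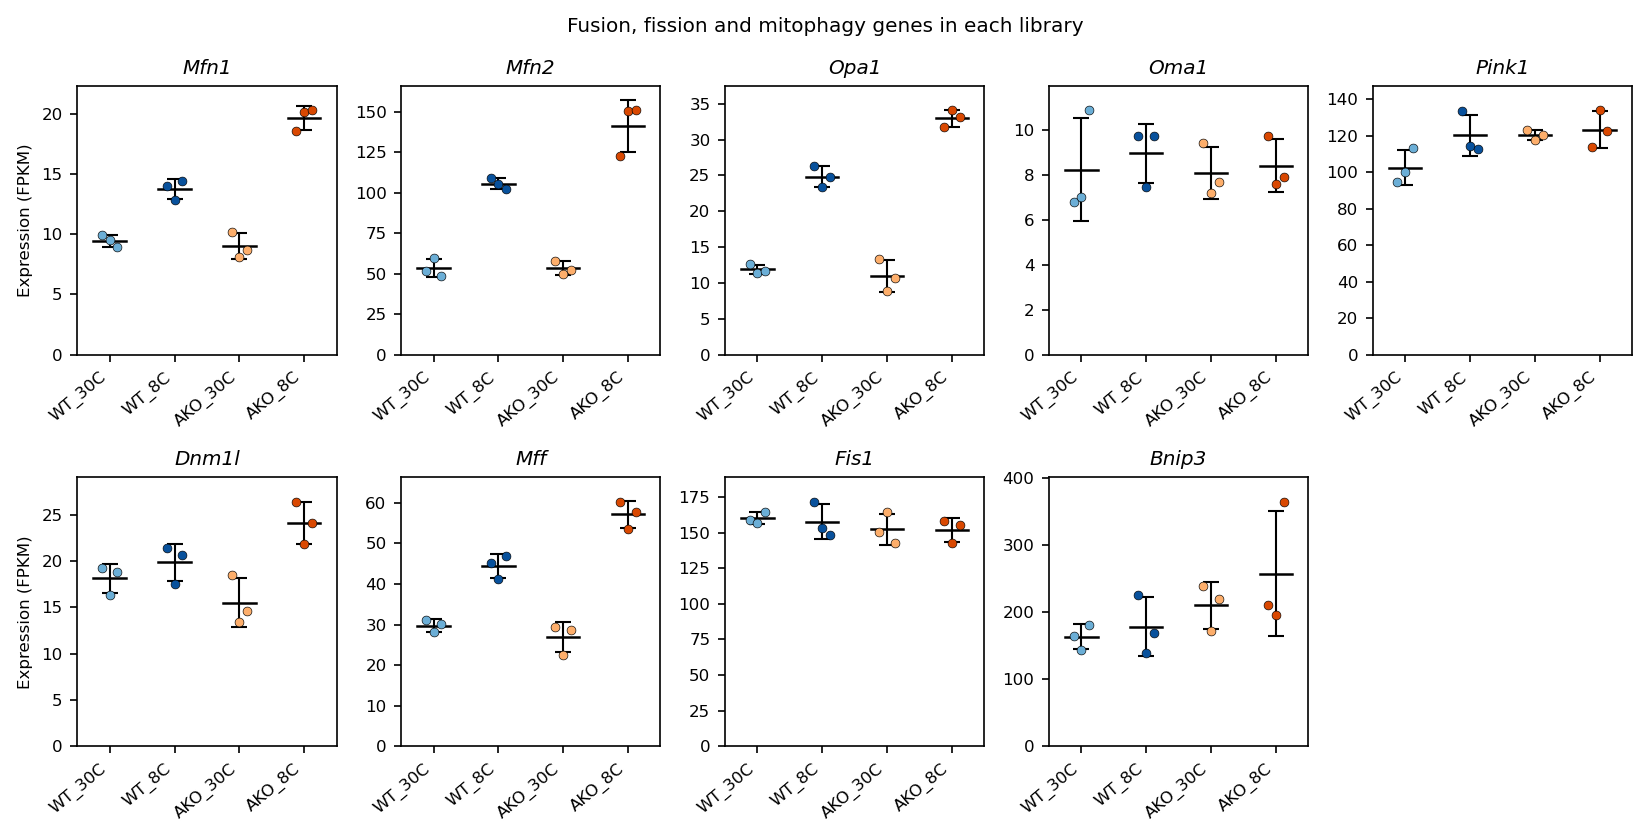
FPKM of each of the 9 genes (vertical axes, each from 0) in the 4 groups (horizontal axis). Points are the 3 mice of a group, and bars give the mean and SD. Mfn1, Mfn2, Opa1 and Mff stand higher in all cold libraries than in all 30 °C libraries of either genotype, and Dnm1l does so in AKO, whereas Fis1, Oma1, Pink1 and Bnip3 overlap between temperatures.

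In WT mice, 3 days at 8 °C were accompanied by higher expression of the fusion members Mfn1, Mfn2 and Opa1, and of the fission adaptor Mff. These 4 of the 9 members rose and none fell (limma on log2(FPKM + 1), with p-values adjusted by Benjamini-Hochberg for the 13215 genes and a threshold of 0.05). Of all 13215 genes, 24.3% rose and 24.7% fell by the same rule, so a rise was common in this comparison. The median log2 difference was 0.23 over the members and -0.01 over all genes. The libraries of the 2 temperatures did not overlap for any of these 4 genes, as for 28.9% of all genes in the upward direction.

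Opa1, the inner-membrane fusion gene, was at 12.6, 11.3 and 11.7 FPKM in the 3 WT_30C libraries and at 26.3, 23.4 and 24.8 in the 3 WT_8C libraries. Every cold library stood well above every warm one. The difference was 1.0005 on the log2 scale (SE 0.121, adjusted p = 5.53e-05), or 2.001-fold (95% interval 1.67 to 2.40) on FPKM + 1. Of all genes tested, 6.81% had a larger difference.

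Mfn2, the more abundant mitofusin, which also tethers mitochondria to the endoplasmic reticulum, was at 51.8, 59.4 and 48.6 FPKM in WT_30C and at 109, 106 and 102 in WT_8C. The cold libraries lay close together and far above the warm ones. The log2 difference was 0.98 (SE 0.108, adjusted p = 3.00e-05), or 1.97-fold (1.67 to 2.32). Mfn1, its partner in outer-membrane fusion, rose less in FPKM + 1, from 9.95, 9.501 and 8.91 FPKM to 14.03, 12.8 and 14.4. Its groups were again apart, by a log2 difference of 0.50 (SE 0.0993, adjusted p = 0.00162), or 1.41-fold (1.21 to 1.64).

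Mff, the outer-membrane receptor for DRP1, was at 31.0, 28.0 and 30.1 FPKM in WT_30C and at 45.2, 41.1 and 46.9 in WT_8C. The groups were apart, by a log2 difference of 0.56 (SE 0.107, adjusted p = 0.00118), or 1.48-fold (1.26 to 1.74). Dnm1l, which encodes DRP1 itself, was at 19.3, 16.4 and 18.8 FPKM and then at 21.4, 17.6 and 20.6. Those groups overlapped, and the log2 difference of 0.12 (95% interval -0.16 to 0.40, adjusted p = 0.444) did not pass the test.

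Fis1, the other adaptor, was at 159, 157 and 165 FPKM in WT_30C and at 172, 153 and 149 in WT_8C, which lie around the same level. The log2 difference was -0.02 (95% interval -0.22 to 0.17, adjusted p = 0.832). Oma1 was at 6.80, 7.02 and 10.9 FPKM and then at 9.73, 7.45 and 9.72. One warm library exceeded all cold ones, and the log2 difference of 0.13 (-0.25 to 0.51, adjusted p = 0.553) did not pass. Without that library, WT_30C replicate 3, it was 0.32 (adjusted p = 0.113), and it ran from 0.02 to 0.32 over the 12 libraries left out in turn.

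Neither of the 2 mitophagy members passed the test in WT. Pink1 was at 94.4, 99.9 and 113.0 FPKM in WT_30C and at 133, 114 and 113 in WT_8C. The lowest cold library was level with the highest warm one, so the groups just overlapped, and the log2 difference of 0.23 (0.01 to 0.45, adjusted p = 0.0770) came near the threshold. It passed without WT_30C replicate 3 (0.30, adjusted p = 0.0407), and the adjusted p ranged from 0.0407 to 0.262 when each of the 12 libraries was left out. Bnip3 was at 164, 144 and 181 FPKM and then at 226, 140 and 169. The highest and the lowest library of the 6 were both cold ones, and the log2 difference was 0.10 (-0.40 to 0.61, adjusted p = 0.731).

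The same genes were then compared between temperatures in the libraries labelled AKO. Of the 9 members 5 rose and none fell, namely the 4 of WT and Dnm1l. Of all genes, 26.5% rose and 23.1% fell. The median log2 difference was 0.61 over the members and 0 over all genes, and the cold and warm libraries did not overlap for these 5 genes, as for 30.5% of all genes in the upward direction.

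Opa1 was at 13.4, 8.94 and 10.7 FPKM in AKO_30C and at 31.7, 34.1 and 33.1 in AKO_8C. The log2 difference was 1.51 (SE 0.121, adjusted p = 1.43e-06), or 2.86-fold (95% interval 2.38 to 3.43) on FPKM + 1, and 3.64% of genes had a larger one. The highest warm value came from replicate 1, the library with the high Ucp1, and without it the log2 difference was 1.65.

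Mfn2 was at 58.0, 49.8 and 51.9 FPKM in AKO_30C and at 122, 150 and 151 in AKO_8C. The groups were far apart, by a log2 difference of 1.39 (SE 0.108, adjusted p = 1.19e-06), or 2.61-fold (2.22 to 3.08). Mfn1 was at 10.2, 8.14 and 8.70 FPKM and then at 18.5, 20.2 and 20.3, a log2 difference of 1.048 (SE 0.0993, adjusted p = 5.38e-06). Both mitofusins thus rose, Mfn2 again from the higher level.

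Mff was at 29.3, 22.6 and 28.6 FPKM in AKO_30C and at 60.2, 53.6 and 57.6 in AKO_8C, a log2 difference of 1.07 (SE 0.107, adjusted p = 8.24e-06). Dnm1l was at 18.5, 13.5 and 14.6 FPKM and then at 26.4, 21.9 and 24.1. The lowest cold library stood above the highest warm one, and the log2 difference was 0.61 (SE 0.128, adjusted p = 0.0019), or 1.53-fold (1.26 to 1.85). The warm library nearest to the cold ones was again replicate 1, and without it the log2 difference was 0.74 (adjusted p = 0.000694).

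Fis1 kept to one range, at 150.5, 164 and 143 FPKM in AKO_30C and 159, 143 and 155 in AKO_8C, a log2 difference of -0.0025 (95% interval -0.20 to 0.19, adjusted p = 0.984). When each library was instead scaled to an equal FPKM sum, which moved the median of all genes to -0.23, Fis1 passed as lower (-0.28, adjusted p = 0.0128), close to that median shift. Under that scaling 2224 genes rose and 5356 fell, against 3498 and 3050 in the authors' scaling, and in WT 2392 rose and 4566 fell, against 3211 and 3268, with a median of -0.15. Oma1 was at 9.40, 7.17 and 7.67 FPKM and then at 9.73, 7.58 and 7.92, a log2 difference of 0.05 (adjusted p = 0.822).

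Among the mitophagy members, Pink1 was at 123, 117 and 120.5 FPKM in AKO_30C and at 113.5, 134 and 122 in AKO_8C, and the cold values straddled the warm ones (log2 difference 0.03, -0.19 to 0.25, adjusted p = 0.822). Bnip3 was at 239.7, 171 and 220.4 FPKM and then at 211, 196 and 365. Only replicate 3 of AKO_8C stood above the warm libraries, and the log2 difference was 0.25 (-0.26 to 0.75, adjusted p = 0.398) with it and -0.03 without it.

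Some or all markers of muscle, thermogenic adipocytes, lymphocytes, adipocytes, endothelium, fibroblasts and macrophages moved with temperature in the same libraries as these members. For macrophages the counts were near the share of all genes. The part of these markers in the rises was not tested. Without WT_8C replicate 1, the library with the epithelial markers, the WT log2 differences were 0.96 for Opa1, 0.96 for Mfn2, 0.48 for Mfn1 and 0.55 for Mff, and all 4 passed.

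**Figure D2:**
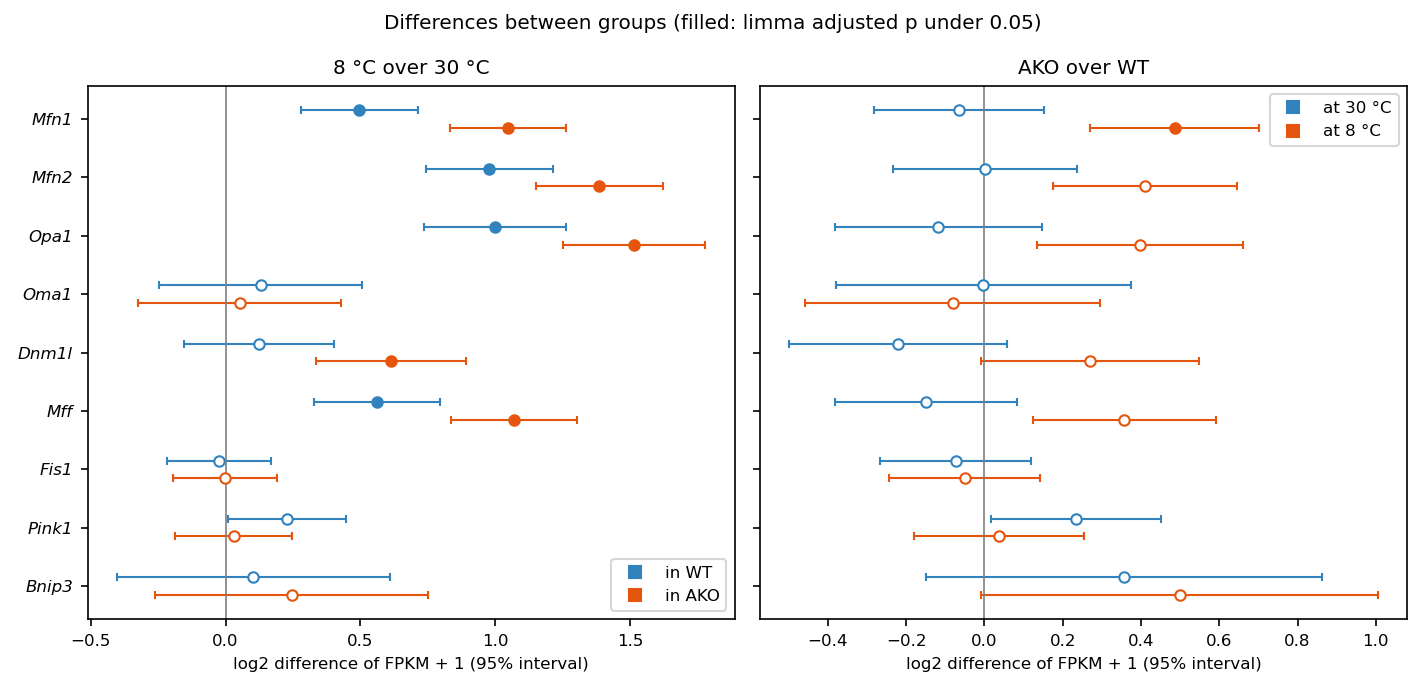
Log2 difference of FPKM + 1 for each gene (horizontal axes) with its 95% interval, for 8 °C over 30 °C in each genotype (left) and AKO over WT at each temperature (right). Filled points passed an adjusted p of 0.05 in limma. On the left, Opa1 and Mfn2 lie farthest to the right in both genotypes and Fis1 lies at 0. On the right, Mfn1 at 8 °C is the 1 filled point.

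Because FPKM is per length, members can be set against each other within a library. Opa1 over Dnm1l, inner-membrane fusion over the fission dynamin, was 0.656, 0.693 and 0.624 in WT_30C and 1.23, 1.33 and 1.204 in WT_8C. In AKO it was 0.725, 0.664 and 0.732 at 30 °C and 1.2, 1.56 and 1.37 at 8 °C. Every cold library was thus above 1 and every warm library below it.

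Mff over Fis1, the balance of the DRP1 adaptors' transcripts, averaged 0.185 ± 0.00833 (SD, n = 3) in WT_30C, 0.282 ± 0.0291 in WT_8C, 0.178 ± 0.0350 in AKO_30C and 0.376 ± 0.00441 in AKO_8C. Opa1 over Oma1 averaged 1.52 ± 0.398, 2.80 ± 0.301, 1.36 ± 0.0959 and 3.98 ± 0.644 in the same order of groups. Mfn2 over Mfn1 averaged 5.64 ± 0.549, 7.70 ± 0.567, 5.92 ± 0.224 and 7.17 ± 0.485. For each of these ratios the cold libraries lay above the warm ones of the same genotype with no overlap. The ratios follow from the gene values above and were not tested.

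**Figure D3:**
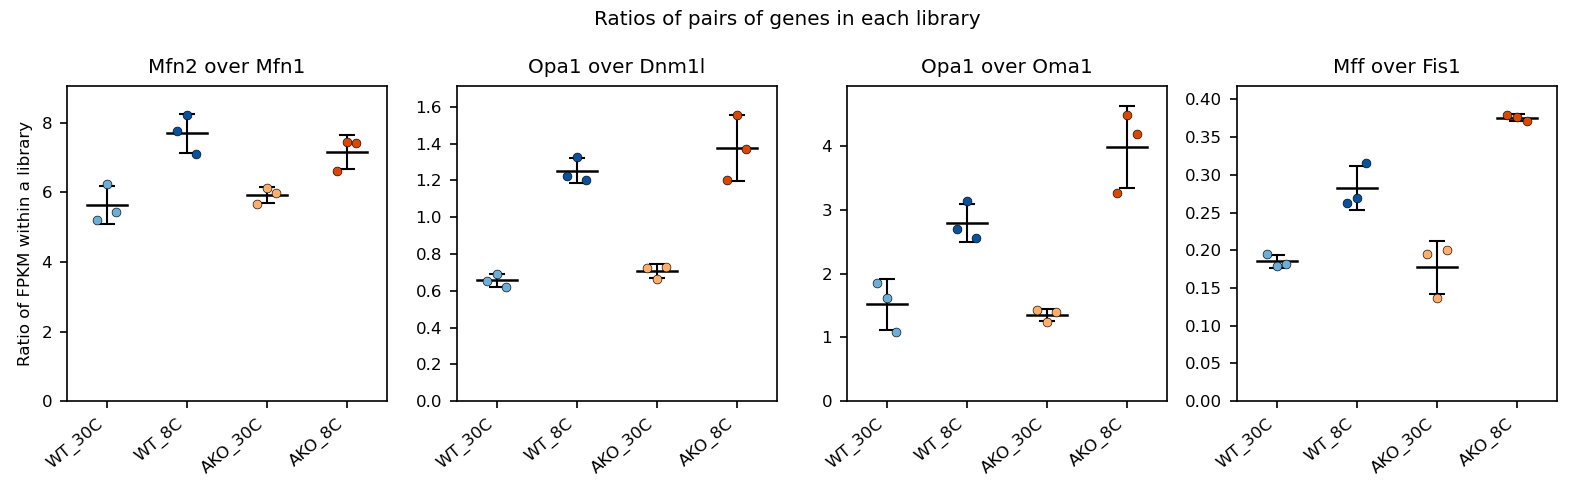
Ratio of the FPKM of 2 genes within each library (vertical axes, each from 0) in the 4 groups (horizontal axis). Points are the 3 mice of a group, and bars give the mean and SD. Opa1 over Dnm1l lies below 1 in all 30 °C libraries and above 1 in all 8 °C libraries, and the other 3 ratios also stand higher in the cold within each genotype.

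The members were set against a list of 12 mitochondrial content genes (among them respiratory, citric acid cycle, import, chaperone and outer-membrane channel proteins). Their log2 differences were smaller than the mean of that list, though not smaller than every gene in it. In both genotypes Tfam, Tomm20 and Vdac1 had smaller differences than Opa1 and Mfn2, while most genes of the list had larger ones. The mean log2 difference of that list in the cold was 1.18 in WT and 1.64 in AKO. Relative to it, Opa1 stood at -0.18 in WT and -0.13 in AKO, with all cold libraries below the warm ones. Of all genes tested, 6.81% in WT and 3.64% in AKO had a larger cold difference than Opa1. Most genes of any kind thus stood below this list in the cold, and these positions are not particular to the members. Mfn2 stood at -0.20 and -0.25, and its libraries overlapped in AKO. Mfn1 (-0.68 and -0.59) and Mff (-0.62 and -0.57) lay further below, and Dnm1l (-1.06 and -1.03) and Fis1 (-1.20 and -1.64) furthest among the fusion and fission genes.

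Among the 5 members that rose, profiles fell into close and distant pairs. Likeness was measured as the root mean square difference of centred log2(FPKM + 1) over the 12 libraries, which share the effects of temperature, so that genes that rose by a like amount come out close. Mfn1 and Mff were the closest pair (0.105), then Mfn2 and Opa1 (0.131). Dnm1l lay far from Opa1 (0.457) and Mfn2 (0.453). Of all genes, the closest to Opa1 were Coa5 (0.0737), Sdhc (0.0789) and Atp5f1 (0.0837), of which Sdhc and Atp5f1 encode subunits of respiratory complex II and of ATP synthase. The closest to Mfn2 were Timm44 (0.0725), which encodes a part of the inner-membrane import motor, Ecsit (0.0756) and Gnas (0.0812). The closest to Mfn1 were Ccdc47 (0.0502), Ndrg3 (0.0724) and Nbn (0.0763), and the closest to Mff were Psme4 (0.0639), Slc30a9 (0.0663) and Zfp91 (0.0709). The closest to Dnm1l were Paip2 (0.0498), Vps54 (0.0588) and 2410127L17Rik (0.0598).

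The rest of the machinery was described with 84 further genes in 8 lists, of which 82 were tested. In WT, 59 rose and 4 fell in the cold, with a median log2 difference of 0.54, and in AKO 63 rose and 2 fell, with a median of 0.69. These counts stand against the 24.3% and 26.5% of all genes that rose. The lists were chosen with earlier results of these data known, so the comparison is a description and not a test.

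In the list of fusion and inner-membrane processing, 8 of 10 genes rose and 1 fell in each genotype (median log2 difference 0.79 in WT and 1.11 in AKO). Phb, a prohibitin that scaffolds the inner membrane and steadies OPA1, went from 78.3 ± 5.08 to 185 ± 4.55 FPKM in WT and from 74.9 ± 9.30 to 249.5 ± 15.8 in AKO. Its log2 difference was 1.23 (adjusted p = 4.33e-06) in WT and 1.73 (adjusted p = 1.64e-07) in AKO. Afg3l2, a protease subunit of the inner membrane, changed by 1.27 and 1.69 on the log2 scale. Fam73a (mitoguardin 1, an outer-membrane fusion factor) was the gene that fell, by 0.60 in WT and 0.43 in AKO, from 2.77 ± 0.539 and 2.45 ± 0.506 FPKM, and was named after its values were seen.

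All 7 genes of the cristae junction list, the MICOS complex and its partner Samm50, rose in both genotypes (median 1.26 and 1.63). Minos1, which encodes the MICOS subunit MIC10, went from 33.5 ± 1.94 to 81.5 ± 7.20 FPKM in WT and from 32.0 ± 3.69 to 100.9 ± 4.92 in AKO. Samm50, of the outer-membrane sorting machinery, rose by 1.02 and 1.58 on the log2 scale.

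Of the 10 other fission genes tested, 7 rose and 1 fell in WT and 8 rose in AKO (median 0.67 and 0.65). Mtfp1, an inner-membrane fission protein, rose most, from 8.76 ± 0.605 to 34.4 ± 3.77 FPKM in WT (log2 difference 1.86, adjusted p = 3.82e-06) and from 8.56 ± 2.31 to 46.5 ± 0.622 in AKO (2.34, adjusted p = 2.66e-07). Mul1, a ligase of the outer membrane that modifies DRP1 and mitofusins, rose by 0.78 and 1.07. Dnm2, a dynamin of the plasma membrane, fell by 0.19 in WT (adjusted p = 0.0472), from 57.4 ± 1.78 to 50.2 ± 1.71 FPKM, and stood at -0.05 in AKO (adjusted p = 0.591).

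Mitophagy genes outside the members included several that rose. Of 6 receptor genes, 3 rose in each genotype (median 0.40 and 0.45). Bcl2l13, the mammalian counterpart of the yeast receptor Atg32, went from 10.9 ± 0.0620 to 25.9 ± 2.58 FPKM in WT (1.18, adjusted p = 9.99e-06) and from 12.3 ± 1.49 to 36.4 ± 3.57 in AKO (1.49, adjusted p = 8.09e-07). Gbas, also called Nipsnap2, rose by 0.72 and 0.86 on the log2 scale. Bnip3l, the close relative of Bnip3 and the third to rise, named after its values were seen, went from 32.1 ± 3.10 to 46.0 ± 9.82 FPKM in WT (0.49, adjusted p = 0.0260) and from 32.9 ± 5.38 to 50.7 ± 5.43 in AKO (0.62, adjusted p = 0.00792). Of 14 genes of the ubiquitin-dependent route, 9 rose in WT and 10 in AKO (median 0.37 and 0.49), among them Rhot2, which encodes the outer-membrane GTPase MIRO2 (0.80 and 1.34), and Usp8, a deubiquitinase (0.60 and 0.99). Of 16 autophagosome genes, 11 rose and 1 fell in WT and 10 rose in AKO (median 0.39 and 0.54). Gabarapl1, an ATG8 family protein, rose by 1.09 and 1.42, Map1lc3a, which encodes an LC3 protein, by 0.86 and 0.51, and Wipi2, which acts early in autophagosome formation, by 0.47 and 0.69. Tfeb, a transcription factor of lysosomal and autophagy genes, was the gene that fell in WT (-0.38, adjusted p = 0.0116) and stood at -0.24 in AKO (adjusted p = 0.0841), and it was named after its values were seen.

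In the content list, 10 of 12 genes rose in WT and 12 of 12 in AKO (median 1.21 and 1.62), among them Idh3a of the citric acid cycle (2.32 and 3.02) and Uqcrc1 of respiratory complex III (1.56 and 1.93). Of 7 regulators, 4 rose and 1 fell in WT and 5 rose and 1 fell in AKO. Ppargc1a, the coactivator PGC-1α that drives mitochondrial biogenesis, went from 1.496 ± 0.597 to 5.42 ± 0.534 FPKM in WT and from 1.55 ± 0.616 to 11.3 ± 1.56 in AKO. Esrra, the oestrogen-related receptor that binds PGC-1α, rose by 1.25 and 1.82. Gabpa (0.41 and 1.21) and Hif1a, the hypoxia-inducible factor (0.42 and 0.88), rose in both genotypes, and Ppargc1b passed in AKO (1.98) and not in WT (0.57, adjusted p = 0.139). Nrf1, a factor for respiratory genes, fell in WT by 0.54 (adjusted p = 0.00106) and also in AKO, by 0.30 (adjusted p = 0.0295), and these last 4 were named after their values were seen.

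**Figure D4:**
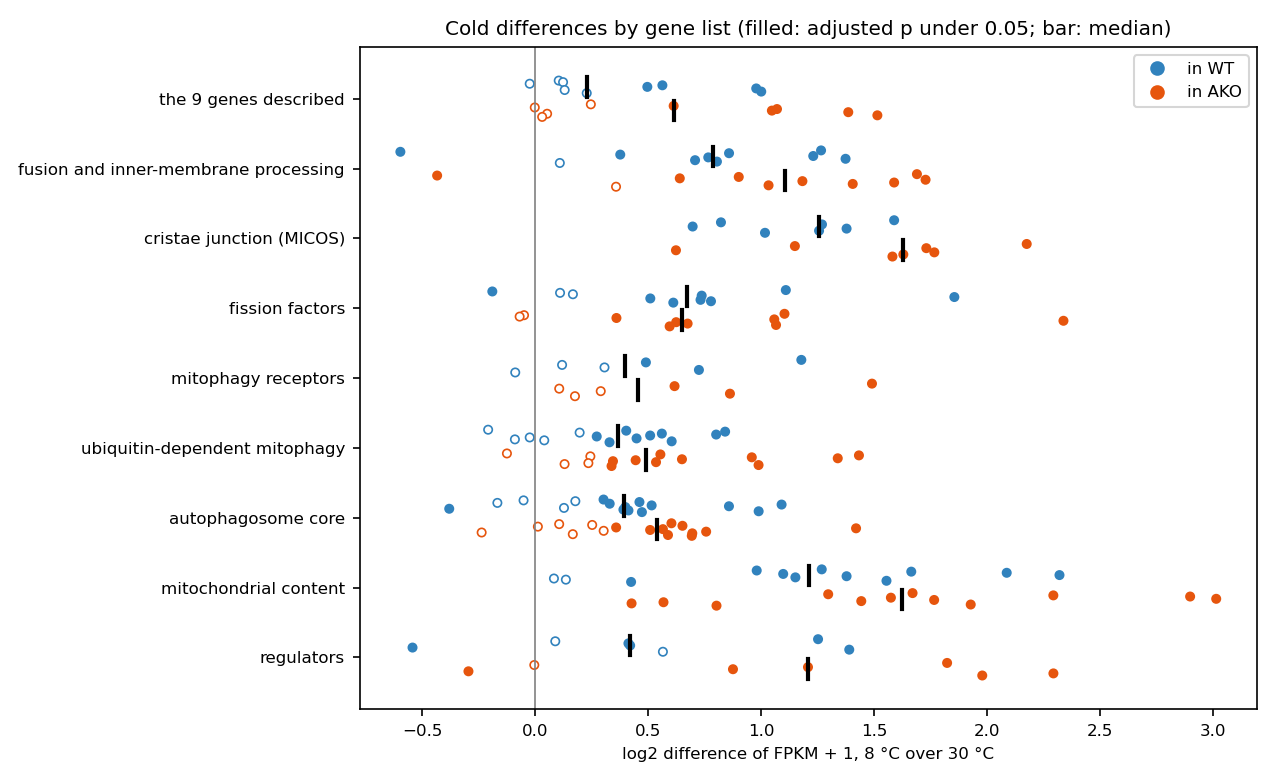
Log2 difference of FPKM + 1 for 8 °C over 30 °C (horizontal axis) of the 9 genes and of each gene in the 8 lists of related genes (rows), in each genotype. Points are genes, filled where the adjusted p was under 0.05 in limma, and bars mark the median of a row. All 7 cristae junction genes and all 12 content genes lie above 0, with medians of 1.26 and 1.21 in WT and 1.63 and 1.62 in AKO, and the receptor list has medians of 0.40 and 0.45.

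The libraries labelled AKO were next set against WT at each temperature. At 30 °C no member passed (limma, 1 of 9 at an unadjusted p under 0.05), nor did any of the 82 related genes (4 at an unadjusted p under 0.05). Of all genes, 0.795% passed in either direction, and 14.4% had an unadjusted p under 0.05. The 105 genes that passed fell to 0 without WT_30C replicate 1, 2 or 3 or AKO_30C replicate 1, to 2 without AKO_30C replicate 3, to 29 without AKO_30C replicate 2, to 43 without WT_8C replicate 3 and to 55 without AKO_8C replicate 1. Of 8 fibroblast markers 3 were higher in AKO_30C, as were 1 of 8 macrophage and 1 of 6 endothelial markers. At an unadjusted p under 0.05 (limma) 7, 7 and 3 of them were higher, and the median log2 differences were 1.27, 1.13 and 0.30. None of 8 lymphocyte markers passed, with 3 lower at an unadjusted p under 0.05 and a median of -0.36. The part of all these markers in the differences was not tested. Pink1 was higher in all AKO_30C libraries (117 to 123 FPKM) than in all WT_30C libraries (94.4 to 113.0), a log2 difference of 0.23 (95% interval 0.02 to 0.45, adjusted p = 0.307). Such a separation in the upward direction was seen for 8.54% of all genes.

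At 8 °C, Mfn1 was the member that passed. It stood at 18.5, 20.2 and 20.3 FPKM in AKO_8C and at 14.03, 12.8 and 14.4 in WT_8C, a log2 difference of 0.49 (SE 0.0993, adjusted p = 0.0334), or 1.40-fold (95% interval 1.21 to 1.63). Of all genes, 2.03% passed, 1.46% upward. That was 193 genes higher and 75 lower, against 77 and 81 when libraries were scaled to an equal sum. These 268 genes fell to 40 without WT_30C replicate 1, to 85, 122 and 45 without WT_8C replicate 1, 2 and 3, and to 145 and 22 without AKO_8C replicate 2 and 3. The call of Mfn1 was lost without WT_30C replicate 1 (adjusted p = 0.0563), without WT_8C replicate 1 (0.0719), replicate 2 (0.0929) or replicate 3 (0.0791) and without AKO_8C replicate 2 (0.0741) or replicate 3 (0.148), while the log2 difference stayed between 0.44 and 0.53. It was also lost under the equal-sum scaling (adjusted p = 0.0629).

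Mfn2, Opa1, Mff and Dnm1l also stood higher in every AKO_8C library than in every WT_8C library, without passing. Their log2 differences were 0.41 (95% interval 0.18 to 0.64, adjusted p = 0.0717), 0.40 (0.13 to 0.66, adjusted p = 0.104), 0.36 (0.12 to 0.59, adjusted p = 0.10) and 0.27 (-0.01 to 0.55, adjusted p = 0.273). Counting Mfn1, 5 of 9 members were so separated upward, against 15.2% of all genes, and the members' median was 0.36 against 0.03 over all genes. Mfn2 passed without AKO_8C replicate 1 (0.51, adjusted p = 0.0476), the AKO_8C library with the lowest Mfn2, Opa1 and Mfn1 and the highest Mff and Dnm1l. The same library had the lowest sum of thermogenic markers in its group, 10250 FPKM, and that sum's part in the differences was not tested.

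Bnip3 had the largest log2 difference of any member at 8 °C, 0.50 (-0.01 to 1.005, adjusted p = 0.265), but its libraries overlapped, and without AKO_8C replicate 3 it was 0.22. Fis1 (-0.05, -0.24 to 0.14), Oma1 (-0.08, -0.46 to 0.30) and Pink1 (0.04, -0.18 to 0.25) did not pass. Under the equal-sum scaling Pink1 stood at -0.03.

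Among the 82 related genes, 8 were higher in AKO at 8 °C and none lower, with 39 higher at an unadjusted p under 0.05, as were 11.9% of all genes. The 8 were Slc25a46 (0.52), Phb (0.43), Samm50 (0.52), Bcl2l13 (0.48), Rhot2 (0.44), Gabarapl1 (0.71), Ppargc1a (0.94) and Gabpa (0.71), as log2 differences with adjusted p from 0.0259 to 0.0496. Gabpa encodes a subunit of GABP, the ETS factor named above, and was at 12.1, 11.7 and 13.99 FPKM in WT_8C and 20.5, 20.4 and 22.6 in AKO_8C. Its motif was found in the searched windows of Mfn1 and of Fis1, which did not differ (-0.05). It was not found in those of Mfn2, Opa1, Mff or Dnm1l. The part of Gabpa in the member differences was not tested. The count of 8 fell to 0 without WT_8C replicate 1 or 2 or without AKO_8C replicate 3, to 1 without WT_30C replicate 1, WT_8C replicate 3 or AKO_8C replicate 2, and to 4 without WT_30C replicate 2, AKO_30C replicate 3 or AKO_8C replicate 1. It was 18 without AKO_30C replicate 1 and 1 under the equal-sum scaling. Of the 7 thermogenic adipocyte markers, 2 were higher in AKO at 8 °C, Dio2 and Ppargc1a, the second of which the list of regulators also holds. Across all 13215 genes, 2560 had an unadjusted p under 0.05 in limma at 8 °C, 1570 of them higher in AKO. None of 10 skeletal muscle markers and none of 8 lymphocyte markers passed (limma, 3 of each lower at an unadjusted p under 0.05), and their median log2 differences were -0.93 and -0.55. The part of these markers in the differences was not tested.

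In the authors' deposited table of genes that differed between genotypes at 8 °C, all changed at least 1.5-fold. None of the 9 members is listed, and none reached that fold here. The largest member difference, that of Bnip3, was 1.41-fold on FPKM + 1. Of the related genes 7 are listed (Cs, Gabarapl1, Gabpa, Idh3a, Optn, Ppargc1a and Ppargc1b). Neither this number nor the absence of members was compared with the share of all genes listed. The 7 related genes thus do not show an excess, and the absent members do not show a lack. In the authors' deposited table for 30 °C, neither a member nor a related gene is listed, which was likewise not compared with the share of all genes.

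Whether the cold difference itself differed between genotypes was tested with the interaction, the AKO cold difference minus the WT cold difference. No member passed, with 5 of 9 higher at an unadjusted p under 0.05 (limma), as were 8.99% of all genes. Of all genes, 0.114% passed in either direction, which was 15 genes and from 0 to 15 with 1 library left out. The 5 were Mfn1 (0.55, 95% interval 0.25 to 0.86, adjusted p = 0.147), Opa1 (0.51, 0.14 to 0.89, adjusted p = 0.221), Mff (0.51, 0.18 to 0.84, adjusted p = 0.188), Dnm1l (0.49, 0.10 to 0.88, adjusted p = 0.253) and Mfn2 (0.41, 0.08 to 0.74, adjusted p = 0.261). Dnm1l passed in the cold in AKO and not in WT, but these data do not show that its cold difference differed between genotypes. The median interaction was 0.41 over the members, 0.28 over the 82 related genes, of which none passed (26 higher at an unadjusted p under 0.05), and 0.07 over all genes. It was -1.15 over 8 fibroblast markers, -1.28 over 8 macrophage markers and 0.71 over 7 thermogenic adipocyte markers. None of these passed, with 7 and 6 lower and 3 higher at an unadjusted p under 0.05 (limma). Across all 13215 genes, 1965 had an unadjusted p under 0.05 in the interaction, 1188 of them higher. The part of these markers in the interaction was not tested.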

How the data were processed

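Total RNA from the 12 inguinal fat pads was sequenced by the authors. Per the submitters' processing notes, bcl2fastq, FastQC 0.11.3, TopHat2 2.0.14 and Cufflinks 2.2.1 were used with build mm10, and annotation and options are not given in the sources used here. The deposited gene table is named a gene count but holds FPKM (99.986% of nonzero values are fractional), so depth is unknown. The authors' deposited comparison tables hold FPKM, a log2 fold change and, per the file headers, a p-value, a q-value and a test statistic, which is a score. Means of each group's columns matched their FPKM to within 0.0067.

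Genes at 1 FPKM or more in at least 3 libraries were tested with limma 3.58.1 (R 4.3.3) on log2(FPKM + 1), keeping the authors' scaling, in 1 fit to the 4 group means with a variance trend, two-sided, with Benjamini-Hochberg adjustment over 13215 genes at 0.05. Fold changes on this scale understate the change of low genes. Scd1 and Snora81 were left out, since each was listed at 0 in part of the libraries and reached 1000 FPKM elsewhere, and 25 symbols had been turned into dates. The test was also run on simulated data with independent noise, the outcome of which is not given here. That run does not bear on the scaling or on single libraries. Replicates are separate mice. Figures used Python 3.11.15.

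The members and the lists were chosen with earlier results of these data known. The set held 10 genes, 1 of which is not reported here. All 9 others were named, with up to 2 called genes of each list and comparison with the smallest adjusted p, Ern1, Ucp1 and Ppargc1a as checks, and the 3 genes most like each member called in the cold. Alternatives were another pseudocount, filter, scaling, variance estimate or set of libraries, a replicate block, and each library left out.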

Additional observations from a re-analysis of the deposited data

How the results depend on the processing

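The calls of the 4 members in WT and the 5 in AKO for 8 °C over 30 °C held under every alternative and with each library left out, as did the absence of called members at 30 °C and in the interaction. Of the other member differences, 12 changed sign, none of which passed the test with either sign. Under scaling by median ratio these were Fis1 in WT in the cold (0.0002), Oma1 for AKO over WT at 30 °C (0.0044) and the interaction of Fis1 (-0.0059). Under scaling to an equal sum they were Oma1 (-0.0102), Dnm1l (-0.0261) and Bnip3 (-0.0523) in WT in the cold, Oma1 (-0.193), Pink1 (-0.242) and Bnip3 (-0.0276) in AKO in the cold, Oma1 at 30 °C (0.0443), Pink1 for AKO over WT at 8 °C (-0.0278), and the interaction of Fis1 (-0.0945). The cause was not tested. Pink1 passed in WT in the cold under scaling by median ratio (0.25, adjusted p = 0.0484).

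For AKO over WT at 8 °C, the count of 1 member was 0 with the libraries of the comparison alone, where Mfn1 had an adjusted p of 0.0712, 0 under the equal sum and 2 with the replicate block, where Mff passed (0.36, adjusted p = 0.0431). The count of 8 related genes was 3 with a pseudocount of 0.1, 3 with no filter, 2 with the libraries of the comparison alone and 1 under the equal sum. Of all genes, the 268 that passed there were 172 with no filter, 35 with the libraries of the comparison alone, 158 under the equal sum and 419 with the replicate block. The 105 at 30 °C were 1 with no filter, 1 with the replicate block, 56 under scaling by median ratio and 49 with the robust variance estimate. For AKO over WT at 8 °C with 1 library left out, members called ranged from 0 to 2 and related genes from 0 to 18. In WT in the cold they ranged from 4 to 5 and from 51 to 63, in AKO in the cold from 5 to 5 and from 60 to 67. Under the equal-sum scaling, 51 of the 63 related genes called in WT in the cold were still called, with 3 new ones. In AKO in the cold, 53 of 65 were still called, with 5 new ones.

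Leaving out 1 library changed the sign of 26 member differences, none of them called, in these ranges. In WT in the cold Fis1 ran from -0.0871 to 0.0168 and Bnip3 ran from -0.0806 to 0.2648. In AKO in the cold Oma1 ran from -0.0462 to 0.1539, Fis1 ran from -0.0486 to 0.0519, Pink1 ran from -0.0306 to 0.0873 and Bnip3 ran from -0.0333 to 0.4121. For AKO over WT at 30 °C Mfn2 ran from -0.0602 to 0.0826, Opa1 ran from -0.2561 to 0.0112 and Oma1 ran from -0.1104 to 0.1916. For AKO over WT at 8 °C Fis1 ran from -0.0927 to 0.0112 and Pink1 ran from -0.0235 to 0.1137. In the interaction Oma1 ran from -0.2724 to 0.0297, Fis1 ran from -0.0236 to 0.0846 and Bnip3 ran from -0.1369 to 0.3263.

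The replicate numbers are not known to pair mice. Correlations of same-numbered libraries ran from -0.109 to 0.156, and in 9 of the 12 the best match was another number. The interaction has no fit with fewer groups. Depth is unknown, and with 3 mice a group the printed intervals show how far each difference is determined.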

Other observations

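In the cold groups Bnip3 was the member with the widest spread between mice, also relative to its level (SD of 24.6% of the mean in WT_8C and 36.2% in AKO_8C), and its highest values came from single libraries. At 30 °C Oma1 in WT (27.7%) and Opa1 (20.4%) and Dnm1l (16.9%) in AKO varied more relative to their level than Bnip3 (11.4% and 16.7%). In AKO_8C it was at 365 FPKM in replicate 3 against 211 and 196 in the others, and in WT_8C at 226 FPKM in replicate 1 against 140 and 169. Vegfa, a growth factor gene induced by hypoxia and by PGC-1α and named here after its values were seen, was also highest in AKO_8C replicate 3, at 289 FPKM against 240.2 and 204. Ppargc1a was lowest in AKO_8C replicate 3, at 9.61 FPKM against 11.76 and 12.65. Hif1a was near level there, at 23.63 FPKM against 23.33 and 22.51. In WT_8C replicate 1 Vegfa was at 158 FPKM, between 154 and 163 in the others. The summed adipocyte markers were at 70720 FPKM in WT_8C replicate 1 against 48700 and 49110, and the skeletal muscle markers were lowest in AKO_8C replicate 3, at 284 FPKM against 528.5 and 817. The part of these genes and sums in the Bnip3 values was not tested.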
